A study of Mus musculus with 10 samples.

Results

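The genes described here are 43 mouse genes of 3 linked stress responses, taken by symbol from the deposited table of 56748 genes. They comprise 21 genes of the unfolded protein response of the endoplasmic reticulum (ER), 11 genes of the integrated stress response and 11 heat shock genes. Their levels were read in 10 mouse liver libraries. Of these, 5 came from ACSS2-flox animals (flox), whose targeted gene carries recombination sites, and 5 from ACSS2-HKO animals (HKO), in which ACSS2, the enzyme that makes acetyl-CoA from acetate, was targeted in liver cells. All were on a high-fat, high-fructose diet over 4 months, and no group on another diet was analysed here. Age, sex, litter, the promoter that drives the deletion and the assignment of libraries to separate animals are not stated by the labels. The p-values below therefore measure only the spread between these libraries, which may be partly technical.

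Total counts per library ran from 15413648 to 19275358. Levels are given as CPM, the counts of a gene scaled to a common library total, with library sizes scaled by the TMM method. A gene with no count in a library could have had up to 3 counts there, which were worth 0.151 to 0.198 CPM, a limit that covers counting error only. Acss2, the targeted gene, was read at 80.8 ± 29.5 CPM in flox and 49.4 ± 7.47 CPM in HKO (SD, n = 5 each), and this difference did not pass the test across genes (log2 fold change -0.71 ± 0.21 SE, edgeR adjusted p = 0.0858), so the genotype labels are only weakly checked. Hepatocyte markers dominated every library, with a summed level of 88240 to 137300 CPM over the 10 markers in flox and 109400 to 142700 CPM in HKO. All 10 macrophage markers fell in HKO, from a summed 192 to 434.5 CPM in flox to 73.2 to 157 CPM in HKO. In whole tissue, fewer cells of a type and less RNA per cell cannot be told apart. For sex, which the labels leave out, Ddx3y of the Y chromosome was read at 71.4 to 122 CPM over the 10 libraries. Xist of the X chromosome reached at most 0.601 CPM. Every library thus held RNA from male cells.

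The 3 responses answer different kinds of protein damage. In the ER, the sensors IRE1 (Ern1), ATF6 and PERK (Eif2ak3) detect unfolded protein and raise chaperones, folding enzymes and the machinery that removes failed proteins; hepatocytes, which secrete most plasma proteins, keep a large ER. PERK and its sister kinases phosphorylate the initiation factor eIF2, which slows translation while favouring that of ATF4, an activator of amino acid synthesis and stress genes, and this arm is called the integrated stress response. In the cytosol, the factor HSF1 raises the HSP70 and HSP90 chaperones and their helpers when proteins unfold.

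HKO differed from flox at 2 of the 42 stress genes that had enough counts to be tested. Ddit4, an inhibitor of the growth kinase mTORC1, fell 3.07-fold, and Hspb1, the small heat shock protein HSP27, rose 2.75-fold. The other 40 tested genes did not pass an adjusted p of 0.05 by the quasi-likelihood F-test of edgeR, two-sided, with Benjamini-Hochberg adjustment across all 14068 genes tested. Over all tested genes 561 passed (3.99%), of which 129 were higher in HKO (0.917%) and 432 lower (3.07%). At an unadjusted p under 0.05 there were 7 stress genes (16.7%), beside 2372 of all tested genes (16.9%). The groups did not overlap at 1 stress gene, Ddit4, while they did not overlap at 755 of all tested genes (5.37%). Fold changes lay above 0 at 28 stress genes (66.7%) and below 0 at 14, beside 51% above 0 over all tested genes. The median log2 fold change was 0.15, against 0.01 over all tested genes. Genes that move together across libraries, as many ER genes did, are not separate observations in such counts.

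By response, the median log2 fold change was 0.17 over the 21 ER genes (15 above 0, 6 below), 0.03 over the 10 tested integrated stress genes (5 above 0, 5 below) and 0.13 over the 11 heat shock genes (8 above 0, 3 below). With library totals in place of TMM, the median over all tested genes was -0.10, and these medians were 0.05, -0.09 and 0.02. The median of the integrated stress genes thus changed sign with the scaling, while all 3 medians lay above that of all tested genes under both scalings. With the replicate number as a block, the integrated stress median lay below that of all tested genes. It also did so without flox replicate 1, HKO replicate 3 or HKO replicate 5. At an unadjusted p under 0.05 there were 3 ER genes (14.3% of those tested), 3 integrated stress genes (30%) and 1 heat shock gene (9.09%). The share over all tested genes was 16.9%.

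**Figure D1:**
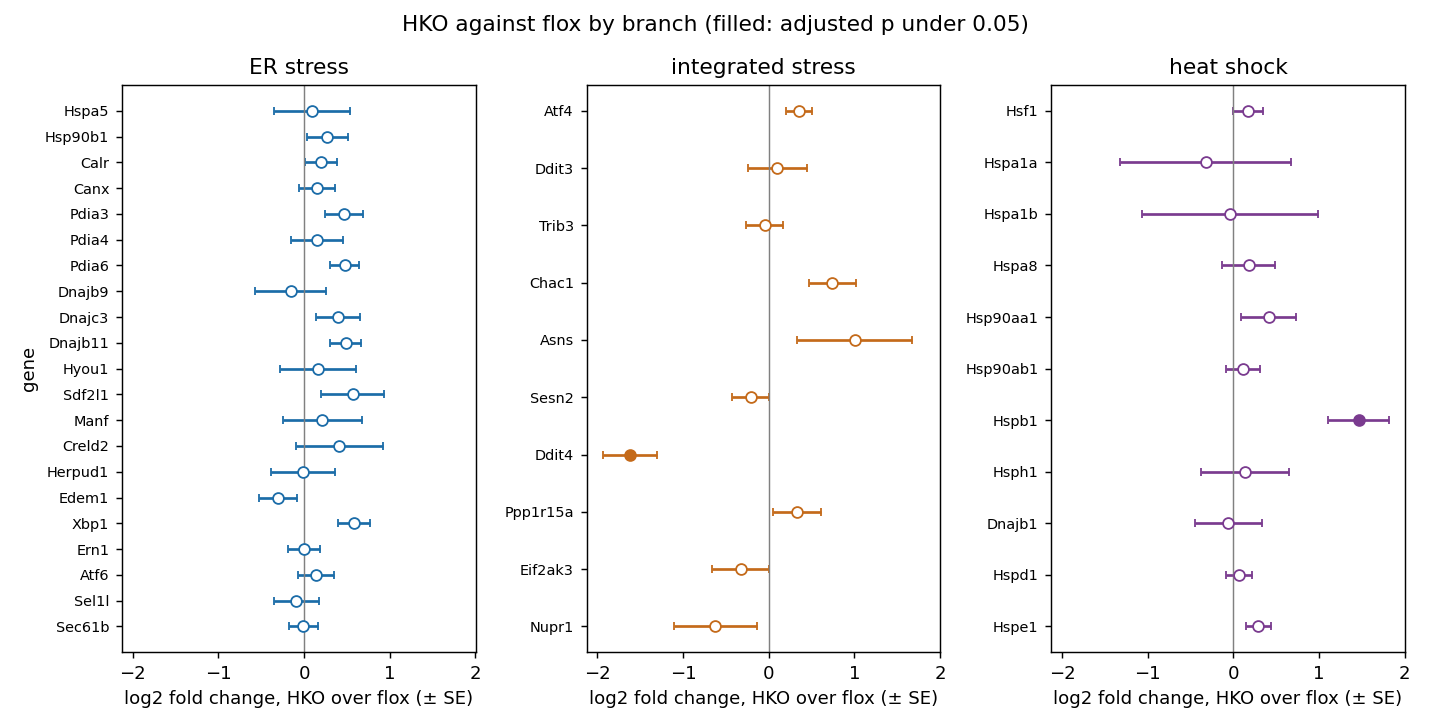
Log2 fold change of HKO over flox with its standard error (horizontal axis) for each of the 42 tested stress genes (vertical axis), in 3 panels by response. Filled points passed an adjusted p of 0.05, which were Ddit4 at -1.62 and Hspb1 at 1.46, and open points did not.

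Per kilobase of gene length, as the mean over the 10 libraries, the highest levels among the stress genes were those of Hspa8 (394 CPM per kilobase), Hsp90ab1 (315 CPM per kilobase), Herpud1 (313 CPM per kilobase), Hspa5 (223 CPM per kilobase) and Calr (205 CPM per kilobase). These are constitutive chaperones of the cytosol and ER, and an ER membrane protein of protein disposal. The lowest were Psat1 (0.175), Nupr1 (0.294) and Asns (0.525 CPM per kilobase). Psat1 and Asns make serine and asparagine, and all 3 belong to the integrated stress response.

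Several ER genes carry in their promoters the element through which ATF6 and XBP1 act with the factor NF-Y. The window searched was RefSeq's promoter table on GRCm38.p6, with 250 bases before and 50 bases after each start, on both strands. Of the 43 genes, 36 had a window there, 18 of them ER genes, 11 integrated stress genes and 7 heat shock genes; Hsp90aa1, Hsf1, Hsp90ab1, Hyou1, Atf6, Hspa8 and Manf had none. The ER stress response element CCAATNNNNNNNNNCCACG was found at 7 of the 18 ER genes, namely Hspa5, Hsp90b1, Calr, Canx, Pdia6, Dnajc3 and Creld2, and at 0 of the other stress genes. It stood in 0.137% of the 27025 genes of the table. Hsp90b1 held 2 copies. Its relative ERSE-II, ATTGGNCCACG, was found at Dnajb11 and Herpud1 (0.0444% of all genes), and TGACGTGG, bound by ATF6 and XBP1, was found at 0 of the stress genes (0.714% of all genes). No 2 of these matches overlapped. Shown are the matches of Hspa5, of 3 genes whose levels followed Hspa5 to different degrees in these libraries, and the ERSE-II of Herpud1. The fixed letters of the element are in capitals:
Hspa5, chr2:34772015-34772053, plus strand: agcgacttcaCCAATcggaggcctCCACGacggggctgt
Creld2, chr15:88819510-88819548, minus strand: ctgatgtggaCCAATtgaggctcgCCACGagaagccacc
Canx, chr11:50325790-50325828, minus strand: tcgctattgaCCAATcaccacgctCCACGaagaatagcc
Pdia6, chr12:17266481-17266519, plus strand: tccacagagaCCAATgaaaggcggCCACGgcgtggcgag
Herpud1, chr8:94386367-94386397, plus strand: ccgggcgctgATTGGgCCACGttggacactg
The element of Hspa5 lay from -65 to -47 relative to the start, where the start is +1, and those of Pdia6, Creld2 and Canx began at -98, -126 and -145 in the direction of each gene. These are matches of letters, and binding was not measured.

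Among the ER transducers, Xbp1 had the smallest p of the ER genes. XBP1 is the factor whose messenger RNA IRE1 splices, and it drives ER expansion. Its levels in replicates 1 to 5, the order used throughout, were 276, 156, 185, 200.3 and 189.5 CPM in flox and 266, 215, 342, 362 and 321 CPM in HKO. In flox, replicate 1 stood above the other 4, and the groups overlapped through it. The log2 fold change was 0.58 ± 0.18, which did not pass the test over all genes (edgeR adjusted p = 0.102), although an exact two-sided permutation test over the 252 assignments of libraries gave an unadjusted p = 0.0238, where 0.00794 is the smallest possible. Xbp1 passed in DESeq2 (adjusted p = 0.0360), where 1112 of 18100 genes passed (6.14%), and in edgeR without flox replicate 1 (adjusted p = 0.0366). Over the other alternatives it reached at most 0.222. These counts cover the whole gene and do not separate spliced from unspliced Xbp1.

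The other ER sensors did not pass the test. Ern1, which encodes the kinase and nuclease IRE1, was read at 64.4, 48.8, 70.1, 64.9 and 62.4 CPM in flox and 51.4, 41.8, 83.9, 55.01 and 77.5 CPM in HKO, and its log2 fold change was 0.00 ± 0.19 (edgeR adjusted p = 0.993). Atf6, a membrane-bound factor released by cleavage in the Golgi, was read at 91.6, 58.3, 49.5, 59.5 and 65.8 CPM in flox and at 71.04, 46.01, 71.8, 105 and 63.4 CPM in HKO. Its log2 fold change was 0.14 ± 0.21 (edgeR adjusted p = 0.809). In both genes the HKO libraries lay on either side of the flox mean.

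Of the ER chaperones and folding enzymes, none passed the test. Hspa5, the HSP70 of the ER (BiP), had levels of 1775, 687, 965, 391 and 746 CPM in flox and 491, 335, 1359.5, 895 and 1774 CPM in HKO. The highest library of each group was near the same level and 5.30 times the lowest of all, HKO replicate 2. Its log2 fold change was 0.09 ± 0.44 (edgeR adjusted p = 0.953). Hsp90b1, the HSP90 of the ER (GRP94), was read at 851, 442, 589.9, 418 and 522 CPM in flox and 471, 459, 702, 906 and 867 CPM in HKO, with 3 HKO libraries above 4 of the flox libraries (log2 fold change 0.27 ± 0.24, edgeR adjusted p = 0.636).

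Next to Xbp1, the 4 ER genes with the smallest unadjusted p were Pdia6, Dnajb11, Pdia3 and Sdf2l1. Pdia6, a disulfide isomerase, was read at 216, 154, 202, 226 and 188 CPM in flox and 229, 212, 243, 359 and 324 CPM in HKO. Here 4 of 5 HKO libraries exceeded every flox library (log2 fold change 0.47 ± 0.17, edgeR adjusted p = 0.164). Dnajb11, a helper of BiP, was read at 83.03, 59.8, 92.98, 63.7 and 67.3 CPM in flox and at 79.8, 77.3, 108, 123 and 125 CPM in HKO. The 3 highest HKO libraries were above all of flox (log2 fold change 0.48 ± 0.18, edgeR adjusted p = 0.166). Pdia3, the isomerase of the glycoprotein folding cycle, was read at 657, 326, 466, 369 and 389 CPM in flox and 461, 457, 593, 762 and 779.6 CPM in HKO. Flox replicate 1 again stood above the rest of its group (log2 fold change 0.47 ± 0.22, edgeR adjusted p = 0.306). Sdf2l1, a partner of BiP in refolding, was read at 44.4, 13.1, 30.7, 19.5 and 16.3 CPM in flox and at 19.7, 20.04, 50.5, 32.5 and 61.1 CPM in HKO, so the groups overlapped widely (log2 fold change 0.57 ± 0.37, edgeR adjusted p = 0.482).

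The remaining ER genes lay between -0.30 and 0.41 on the log2 fold change scale, with edgeR adjusted p from 0.483 to 0.993. The lectin chaperones Calr and Canx, which hold glycoproteins during folding, had log2 fold changes of 0.19 and 0.15. The isomerase Pdia4 stood at 0.15 and the chaperones Hyou1, an exchange factor of BiP, and Dnajc3, a BiP cofactor, at 0.17 and 0.39. Manf and Creld2, both secreted under ER stress, had log2 fold changes of 0.21 and 0.41, and Dnajb9, which returns BiP to IRE1, -0.16. In the disposal machinery, log2 fold changes were -0.30 for the mannosidase-like Edem1, -0.09 for the ligase adaptor Sel1l and -0.01 for Herpud1. Sec61b, a subunit of the channel through which proteins enter the ER, had -0.01. Reads of Manf could in part belong to Dcaf1 and Rbm15b, which overlap it and had 33.4% and 17.8% as many counts.

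The spread between libraries of the same group was wide for many of these genes. Within groups, the SD of log2 CPM was 1.07 for Creld2, 0.95 for Manf, 0.92 for Hyou1, 0.90 for Hspa5 and 0.83 for Dnajb9, against a median of 0.32 over the 12972 tested genes with a mean of at least 1 CPM. Only 172 of those genes varied more than Creld2 and 342 more than Hspa5. Pdia6 (0.28), Sec61b (0.28), Calr (0.30), Xbp1 (0.30) and Dnajb11 (0.30) were below that median. Of the 5 ER genes with the smallest p, Xbp1, Pdia6 and Dnajb11 were thus among the less variable.

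The variable ER genes moved together across libraries. Over the 10 libraries, log2 CPM followed that of Hspa5 most closely for Pdia4 (Pearson r = 0.978, Spearman rho = 0.964), Hyou1 (r = 0.974, rho = 0.952), Sel1l (r = 0.962, rho = 0.939), Manf (r = 0.954, rho = 0.952), Creld2 (r = 0.953, rho = 0.927) and Dnajb9 (r = 0.949, rho = 0.915). For these 6 genes the permutation p (100000 draws) ran from 1e-05 to 0.00014 for r and from 7e-05 to 0.00049 for rho. With Benjamini-Hochberg adjustment across the 20 relations computed, these became 0.0002 to 0.000467 and 0.0008 to 0.00163. Without flox replicate 1 and HKO replicate 2, the libraries farthest from the median of Hspa5, r was 0.986, 0.980, 0.941, 0.958, 0.980 and 0.929 in the same order. After each group was centred on its own mean, r was 0.981, 0.974, 0.971, 0.955, 0.959 and 0.952. Of the 20 relations, 13 had an adjusted permutation p under 0.05 for r and 12 for rho, and 10 had an r above 0.7 both with all libraries and without those 2. Herpud1 (r 0.741, then 0.639) and Ern1 (0.716, then 0.651) were above 0.7 only with them, and Pdia3 (0.687, then 0.717) and Dnajb11 (0.618, then 0.773) only without them. How many of all tested genes followed Hspa5 as closely was not computed. The counts of relations therefore do not show a trait particular to ER genes.

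Other ER genes followed Hspa5 less closely. Pearson r was 0.335 for Pdia6 (rho 0.297, adjusted permutation p = 0.349 for r and 0.409 for rho), 0.409 for Sec61b (rho 0.394, adjusted 0.250 and 0.279) and 0.508 for Xbp1 (rho 0.430, adjusted 0.179 and 0.244). For Canx, r was 0.481 with rho 0.503 (adjusted permutation p = 0.184 and 0.180), and for Atf6 0.478 with rho 0.515 (adjusted 0.184 and 0.180). Without the 2 farthest libraries r for these last was 0.210 and 0.086, so what relation they had rested on those libraries. Of the printed promoters with the ER stress response element, that of Creld2 belongs to a gene that followed Hspa5 closely, and those of Canx and Pdia6 to genes that did so weakly. Of the other genes with the element, Hsp90b1 (r = 0.848) and Calr (0.760) followed Hspa5, and Dnajc3 (0.486) did so weakly. In Pdia4, Sel1l and Dnajb9, which followed Hspa5 closely, the letters of the element are not in the window.

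**Figure D2:**
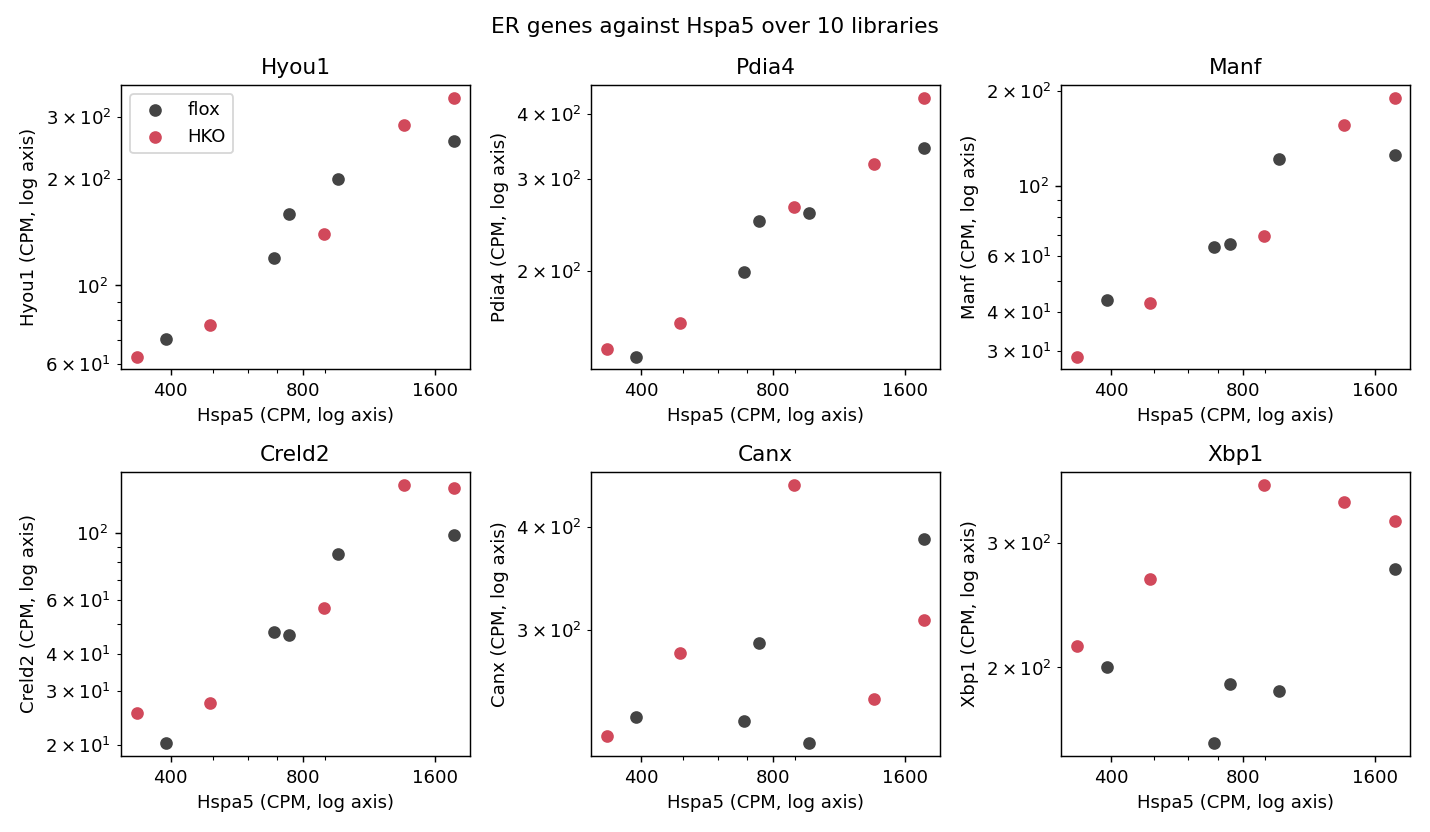
Levels of 6 ER genes (vertical axes, CPM, log scale) against Hspa5 (horizontal axes, CPM, log scale), 1 point per library, grey for flox and red for HKO. Hyou1, Pdia4, Manf and Creld2 lie close to a line through both groups (Pearson r of log2 CPM 0.974, 0.978, 0.954 and 0.953), whereas Canx (0.481) and Xbp1 (0.508) scatter.

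The integrated stress response starts with eIF2 kinases, and the member kinase is Eif2ak3, the ER sensor PERK. It was read at 23.9, 16.9, 12.1, 9.17 and 23.02 CPM in flox and 10.5, 5.67, 21.1, 11.5 and 18.9 CPM in HKO, with overlapping groups (log2 fold change -0.33 ± 0.33, edgeR adjusted p = 0.685). Atf4, the central activator, was read at 56.6, 56.8, 81.1, 76.5 and 54.9 CPM in flox and 78.5, 75.4, 89.9, 98.4 and 73.4 CPM in HKO. Of the HKO libraries, 2 exceeded every flox library and none lay below the flox mean of 65.2 CPM. Its log2 fold change of 0.35 ± 0.15 did not pass (edgeR adjusted p = 0.251; unadjusted p = 0.0714 by the exact permutation test). The activity of ATF4 is set mainly by translation, which these counts do not measure.

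Among the targets, Ddit4 was the member with the lowest p and the only one whose groups were apart. Ddit4, also called REDD1, is induced by ATF4, hypoxia, glucocorticoids and energy stress. Its levels were 5.94, 15.3, 12.1, 6.59 and 6.20 CPM in flox and 1.94, 3.47, 3.17, 2.12 and 4.24 CPM in HKO. Every HKO library lay below every flox library, and within flox, replicates 2 and 3 stood above the other 3. The means were 9.23 ± 4.26 CPM and 2.99 ± 0.959 CPM (SD, n = 5 each), with log2 fold change -1.62 ± 0.32, an edgeR adjusted p of 0.0150 and an exact permutation p of 0.00794. It passed under each of the 18 alternatives, with adjusted p between 6.3e-05 and 0.0404 and log2 fold changes from -1.78 to -1.36. The deposited table, whose build is uncertain, places Ddit4 on the minus strand of chromosome 10, from 59785491 to 59787656. Macrophage markers were lower in the same libraries, and their part in the fall of Ddit4 was not tested.

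Chac1, which degrades glutathione and is induced by ATF4 and CHOP, had a fold change of the other sign that did not pass the test. It was read at 4.47, 3.53, 2.62, 2.29 and 4.58 CPM in flox and 6.03, 3.66, 8.46, 4.43 and 6.72 CPM in HKO, with 3 HKO libraries above all of flox. The log2 fold change was 0.74 ± 0.28 (edgeR adjusted p = 0.169). Asns, asparagine synthetase, was low, at 0.245, 0.853, 0.164, 1.66 and 1.81 CPM in flox and 1.04, 1.83, 0.661, 5.21 and 0.882 CPM in HKO. Its HKO mean was carried by replicate 4 (log2 fold change 1.002 ± 0.67, edgeR adjusted p = 0.495). Nupr1, a small stress-induced nuclear protein, was read at 0.367, 0.548, 0.601, 1.03 and 1.91 CPM in flox and at 0.843, 0.378, 0.859, 0.578 and 0.276 CPM in HKO (log2 fold change -0.63 ± 0.48, edgeR adjusted p = 0.571), levels only a few times the limit set by 3 counts.

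Ddit3, which encodes the death-promoting factor CHOP, was read at 8.38, 10.5, 15.5, 6.07 and 9.32 CPM in flox and 5.96, 6.24, 18.7, 6.56 and 15.9 CPM in HKO. In HKO its values fell into a low trio (replicates 1, 2 and 4) and a high pair (3 and 5), and the log2 fold change was 0.10 ± 0.35 (edgeR adjusted p = 0.928). Mars1, which overlaps it on the other strand, had 514% as many counts, and reads of the 2 genes cannot be told apart if strand was not used in counting. A second table row named Ddit3 had no counts. The other 4 genes were Trib3, a pseudokinase that restrains ATF4, with a log2 fold change of -0.05, Sesn2, an inhibitor of mTORC1, with -0.21, Ppp1r15a (GADD34), which reverses eIF2 phosphorylation, with 0.33, and Psat1. Psat1 had too few counts to be tested and ranged from 0 CPM in HKO replicate 5, where up to 0.165 CPM is allowed, to 3.53 CPM in flox replicate 5. The fold changes of these ATF4-linked genes thus had both signs.

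**Figure D3:**
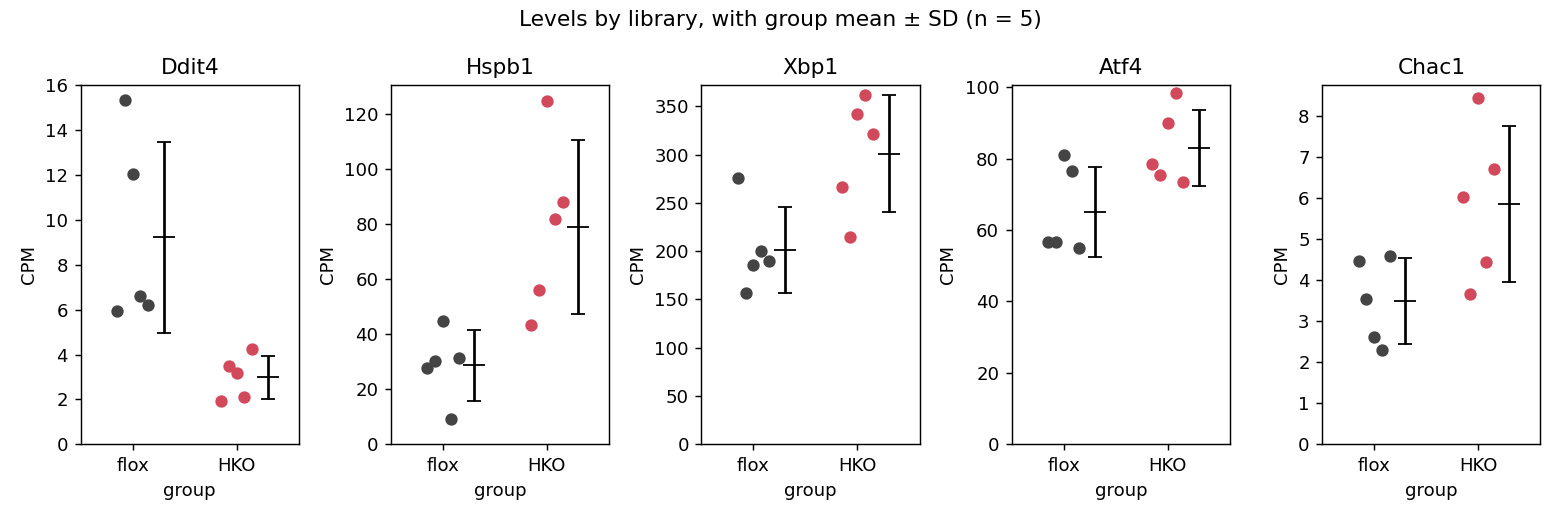
Levels in CPM (vertical axes, from 0) of Ddit4, Hspb1, Xbp1, Atf4 and Chac1 by group (horizontal axes), 1 point per library, with the group mean and SD beside the points (n = 5). At Ddit4 the HKO libraries (1.94 to 4.24 CPM) lie below all flox libraries (5.94 to 15.3 CPM), and at the other 4 genes the groups overlap.

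The amino acid response element to which ATF4 binds with C/EBP partners, TGATGNAA, was found in the promoter windows of 4 of the 11 integrated stress genes, Asns, Chac1, Nupr1 and Trib3. It also stood at Herpud1, apart from its ERSE-II, and in 4.51% of all genes. Ddit4, the gene that fell, does not hold these letters in its window. Shown are the matches of the 3 named above with values, the element in capitals:
Asns, chr6:7693215-7693242, minus strand: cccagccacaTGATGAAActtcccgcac
Chac1, chr2:119351039-119351066, minus strand: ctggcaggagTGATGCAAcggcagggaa
Nupr1, chr7:126625563-126625590, plus strand: aagccctgtcTGATGCAAtctggccctt
The levels of these 3 genes differed in sign of fold change, and none passed the test.

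In the heat shock response, Hspb1 was the gene that rose. HSP27 is a small chaperone that holds unfolding proteins and binds the actin cytoskeleton. Its levels were 27.6, 30.3, 44.8, 9.05 and 31.3 CPM in flox and 43.2, 56.2, 125, 81.7 and 88.1 CPM in HKO. In HKO, 4 of 5 libraries were above all of flox, and the groups overlapped because HKO replicate 1 lay just under flox replicate 3. The means were 28.6 ± 12.8 CPM and 78.8 ± 31.5 CPM (SD, n = 5 each), with a log2 fold change of 1.46 ± 0.35, an edgeR adjusted p of 0.0332 and an unadjusted exact permutation p of 0.0159. The call was close to the threshold. It was lost with robust dispersion (adjusted p = 0.0649) and without flox replicate 1, 2 or 5 or HKO replicate 3, 4 or 5 (adjusted p = 0.0656 to 0.0713), while the log2 fold change stayed between 1.24 and 1.68 over all 18 alternatives. The table places Hspb1 on the plus strand of chromosome 5, from 135916773 to 135918417.

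Hsf1, the regulator of the response, did not pass the test. It was read at 14.7, 16.5, 23.5, 15.4 and 17.5 CPM in flox and at 15.8, 19.5, 26.2, 16.5 and 20.5 CPM in HKO (log2 fold change 0.17 ± 0.17, edgeR adjusted p = 0.685). HSF1 is controlled mostly by phosphorylation, trimer formation and chaperone binding, which RNA does not show.

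The inducible HSP70 genes, Hspa1a and Hspa1b, varied more within both groups than nearly all other genes. Hspa1b was read at 31.8, 88.5, 86.5, 2.12 and 38.9 CPM in flox and 5.06, 2.46, 137, 2.63 and 93.97 CPM in HKO. A low set of 4 libraries, flox replicate 4 and HKO replicates 1, 2 and 4, lay at or below 5.06 CPM, and the other 6 lay at or above 31.8 CPM. The highest library had 64.8 times the level of the lowest. Within groups the SD of log2 CPM was 2.52, and 3 of the 12972 ranked genes had a larger one. The log2 fold change was -0.04 ± 1.03 (edgeR adjusted p = 0.991). Hspa1a was low, at 0.979, 4.87, 7.04, 0.172 and 1.61 CPM in flox and 0.130, 0.504, 7.67, 0 and 3.42 CPM in HKO, where the 0 allows up to 0.193 CPM. The same 4 libraries were its lowest (log2 fold change -0.33 ± 0.999, edgeR adjusted p = 0.918). The 2 genes are 99.2% identical over most of their transcripts, so the split of reads between them is uncertain. Their sum ranged 63.3-fold over the libraries, with an exact permutation p of 0.524 between the groups.

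Co-chaperones of HSP70 followed the same split of libraries to a smaller degree. Hsph1 (HSP110), its exchange factor, was read at 129, 109, 132, 24.1 and 89.3 CPM in flox and 59.1, 29.2, 213, 53.9 and 173 CPM in HKO, and Dnajb1 (HSP40) at 36.4, 48.96, 52.7, 16.2 and 32.5 CPM in flox and 26.9, 16.6, 63.8, 16.8 and 55.3 CPM in HKO. Both had the same 4 lowest libraries as Hspa1b, and their log2 fold changes were 0.13 and -0.06. These 4 libraries were the lowest at 4 of the 11 heat shock genes. Those 4 genes are Hspa1b, which defined the set, its near-identical copy Hspa1a, Hsph1 and Dnajb1. The same 4 libraries were the lowest at 3 of the 21 ER genes (Herpud1, Edem1 and Sel1l) and at 2 of the 10 tested integrated stress genes (Ddit3 and Eif2ak3). Over all tested genes they were the lowest at 276 (1.96%).

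Of 12 circadian clock genes, 1 had the same 4 lowest libraries as Hspa1b (8.33%), and this was Bmal1. It and Dbp are given here as genes chosen after their values were seen. Bmal1, listed as Arntl and a core activator of the clock, was read at 11.99, 16.4, 6.28, 3.38 and 7.86 CPM in flox and 1.23, 1.64, 12.3, 3.28 and 22.7 CPM in HKO. Dbp, a clock output gene that peaks in the opposite phase, was read at 25.9, 19.6, 44.6, 129 and 44.6 CPM in flox and 94.5, 103, 33.8, 41.97 and 2.65 CPM in HKO. It was highest in flox replicate 4 and HKO replicates 1 and 2, and lowest in HKO replicate 5, while HKO replicate 4, low at Hspa1b, lay below flox replicates 3 and 5. The labels give no sampling times. By edgeR 0 of the 12 clock genes passed between the groups, and 0 had an unadjusted p under 0.05, with summed levels of 460 to 855 CPM in flox and 531 to 781.5 CPM in HKO. Because the Hspa1b values fell into separate sets, no correlation is given, and the part of the clock in the heat shock levels was not tested. With the difference of Dbp and Bmal1 in log2 CPM as a covariate, chosen after seeing the data, 577 of all tested genes passed (4.10%). In that fit the edgeR adjusted p was 0.0127 for Ddit4 and 0.0183 for Hspb1. The part of sampling time in the levels of either gene was not tested.

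**Figure D4:**
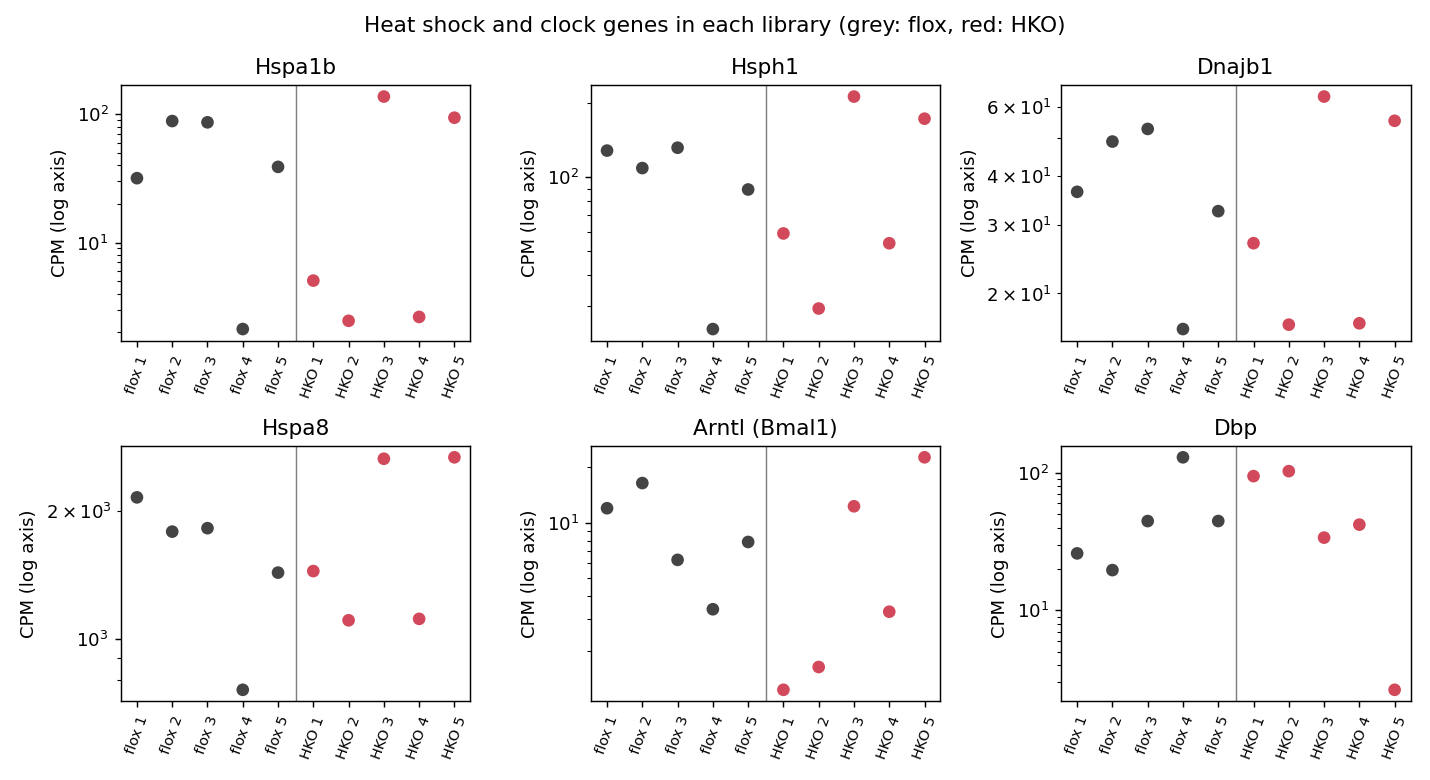
Levels in CPM (vertical axes, log scale) of the heat shock genes Hspa1b, Hsph1, Dnajb1 and Hspa8 and of the clock genes Arntl (Bmal1) and Dbp in each library (horizontal axes), grey for flox and red for HKO. Flox replicate 4 and HKO replicates 1, 2 and 4 are the lowest libraries at Hspa1b, Hsph1, Dnajb1 and Arntl.

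Hspa8, Hsp90aa1 and Hsp90ab1 had narrower ranges than the inducible HSP70 genes. Their highest library had 3.52, 4.84 and 2.15 times the level of the lowest, beside 3.94 times for Dnajb1. Hspa8, the constitutive HSP70 (HSC70), was read at 2153, 1789, 1822, 759 and 1433 CPM in flox and 1445, 1107, 2654, 1115 and 2675 CPM in HKO. Flox replicate 4 was lowest and HKO replicates 3 and 5 highest (log2 fold change 0.18 ± 0.31, edgeR adjusted p = 0.839). Hsp90aa1, the inducible HSP90, was read at 372, 299.8, 331, 94.2 and 253 CPM in flox and 227, 220.4, 445, 456 and 448 CPM in HKO. Its 3 highest HKO libraries were above all of flox (log2 fold change 0.41 ± 0.32, edgeR adjusted p = 0.578). Hsp90ab1, the constitutive HSP90, was read at 997, 1076, 1007, 563 and 892 CPM in flox and 864, 751, 1173, 909.9 and 1211 CPM in HKO (log2 fold change 0.11 ± 0.20, edgeR adjusted p = 0.837). In all 3 genes flox replicate 4 was the lowest library of the 10.

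The mitochondrial chaperonin genes varied least among the stress genes. Hspe1 (HSP10) was read at 81.7, 109, 107, 65.9 and 85.7 CPM in flox and 119, 104, 108, 106 and 112 CPM in HKO. The HKO libraries lay within a narrow band near the highest flox values (log2 fold change 0.29 ± 0.15, edgeR adjusted p = 0.346). Its partner Hspd1 (HSP60) had 330.2 to 490.4 CPM in flox against 357 to 476 CPM in HKO, with a log2 fold change of 0.07. Within groups their SDs of log2 CPM were 0.22 and 0.21, and 10036 and 10250 of the 12972 ranked genes varied more. The genes lie head to head and their spans overlap in the table, so reads could be shared where strand was not used. The heat shock element GAANNTTCNNGAA was found in the window of both and at Hsph1, that is 3 of the 7 heat shock genes with a window, and in 0.662% of all genes. In the shared stretch the element matches on both strands, and the 2 matches overlap. The stretch lies upstream of Hspe1 and of a start of Hspd1, and within Hspd1 from another of its starts. It is shown because these 2 genes varied least, with the repeats of the element in capitals:
Hspe1 and Hspd1, chr1:55088053-55088082, plus strand: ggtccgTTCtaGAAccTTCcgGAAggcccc
Of the 4 heat shock genes with the same lowest libraries, Hsph1 holds these letters in its window and Hspa1a, Hspa1b and Dnajb1 do not.

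**Figure D5:**
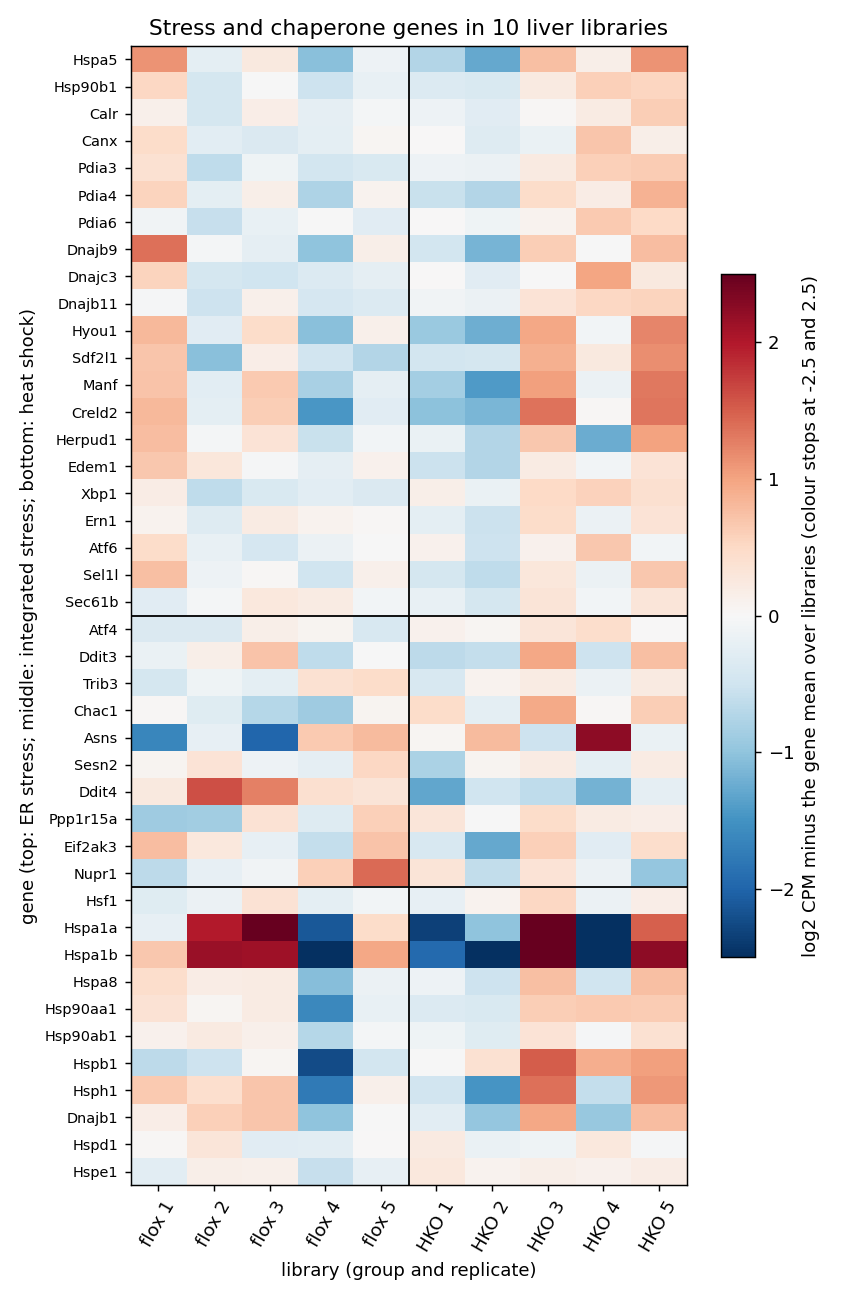
Log2 CPM minus the mean of the gene over the 10 libraries (colour, blue low, red high, capped at both ends of the scale) for the 42 tested stress genes (rows, by response, Psat1 left out) and the libraries (columns, flox left, HKO right). Flox replicate 4 and HKO replicates 1 and 2 are blue over many ER and heat shock rows, flox replicate 1 is red over many ER rows and HKO replicates 3 and 5 over both, and Ddit4 is the row that divides by group.

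Averaged over the genes of a response, centred log2 CPM of the ER genes spanned -0.49 to 0.51 in flox, and -0.61 to 0.67 in HKO. The range was -0.30 to 0.44 in flox and -0.23 to 0.29 in HKO for the integrated stress genes, and -1.34 to 0.62 and -0.66 to 1.05 for the heat shock genes. The lowest ER average was in HKO replicate 2 and the highest in HKO replicate 5, and for heat shock they were in flox replicate 4 and HKO replicate 3. For all 3 responses the ranges of the groups overlapped over most of their width.

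Further genes of the same pathways were counted from lists of their components. None passed by edgeR of 30 further ER genes, of 23 tested of 29 further integrated stress genes, or of 29 tested of 30 further heat shock genes, while 4, 3 and 3 of them had an unadjusted p under 0.05 (16.9% of all tested genes). DESeq2 called 2 of them, Derl3 and Creb3l3. Median log2 fold changes were 0.03, -0.03 and 0.16. Slc7a11, Slc7a1, Phgdh, Aldh1l2, Pycr1, Stc2 and Hspa1l had too few counts to be tested.

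Of the further ER genes, Derl3, a channel subunit for disposal of ER proteins and a target of XBP1, came nearest to the threshold. It was read at 13.4, 2.19, 9.94, 3.90 and 4.99 CPM in flox and 8.23, 12.04, 31.8, 26.1 and 44.2 CPM in HKO, with 3 HKO libraries above all of flox. The log2 fold change was 1.83 ± 0.50 (edgeR adjusted p = 0.0578). It passed in 5 of 18 alternatives, with adjusted p from 0.00278 to 0.134 over all of them. Pdia5, a disulfide isomerase, was read at 44.8, 35.6, 49.2, 44.6 and 40.04 CPM in flox and 50.6, 49.9, 65.4, 55.7 and 57.04 CPM in HKO (log2 fold change 0.38 ± 0.13, edgeR adjusted p = 0.136). Creb3l3 (CREB-H), an ER-bound factor of the liver that regulates lipid genes, was read at 254, 336, 328, 279 and 309 CPM in flox and 413, 370.5, 354, 408 and 387 CPM in HKO (log2 fold change 0.36 ± 0.13, edgeR adjusted p = 0.156). At both genes every HKO library lay above every flox library. The groups did not overlap at 3 of the 30 further ER genes, beside 5.37% of all tested genes. The remaining gene was Tmbim6, which was lower in HKO (log2 fold change -0.38 ± 0.15, edgeR adjusted p = 0.189). Creb3l3 passed in DESeq2 (adjusted p = 0.0499).

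Of the further integrated stress genes, Cebpg, a partner of ATF4, was read at 66.4, 53.5, 57.2, 54.4 and 59.6 CPM in flox and 79.3, 49.03, 82.7, 114 and 74.9 CPM in HKO (log2 fold change 0.46 ± 0.18, edgeR adjusted p = 0.209). Atf3, a stress-induced repressor, was read at 1.28, 1.22, 1.42, 0.688 and 8.71 CPM in flox and at 0.454, 0.567, 1.85, 0.643 and 0.772 CPM in HKO (log2 fold change -1.65 ± 0.67, edgeR adjusted p = 0.217). Flox replicate 5 alone was high. The summed level of 10 immediate early genes, which rise within minutes of handling, was also highest there. It was 771 CPM against 84.2 to 164 CPM in the other flox libraries and 101 to 251 CPM in HKO. Among them, Dusp1 was highest in HKO replicate 5 (95.5 CPM against 85.0 CPM in flox replicate 5). Summed stellate and cholangiocyte markers were also highest in flox replicate 5 (280 and 163 CPM). The part of any of these in the level of Atf3 was not tested. The seryl-tRNA synthetase gene, listed as Sars, was read at 41.5, 47.2, 51.2, 49.4 and 46.1 CPM in flox and 60.99, 47.1, 61.8, 55.3 and 58.7 CPM in HKO (log2 fold change 0.27 ± 0.12, edgeR adjusted p = 0.275).

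The 3 further heat shock genes with the smallest p were Hspb6, Cct8 and Ahsa1. Hspb6, a small heat shock protein related to HSP27, was read at 13.95, 14.01, 20.4, 15.7 and 12.5 CPM in flox and 16.5, 25.5, 19.6, 22.6 and 18.4 CPM in HKO, a smaller difference than that of Hspb1 (log2 fold change 0.42 ± 0.16, edgeR adjusted p = 0.198). Cct8, a subunit of the cytosolic chaperonin, was read at 135, 129, 138, 123 and 114 CPM in flox and 152, 142, 155, 160.2 and 152 CPM in HKO, with all HKO libraries above all of flox (log2 fold change 0.25 ± 0.11, edgeR adjusted p = 0.280). The groups did not overlap at 2 of the 29 tested genes of this list, beside 5.37% of all tested genes. These were Cct8 and Cct2 (log2 fold change 0.22 ± 0.11 and edgeR adjusted p = 0.348 for Cct2). Ahsa1, which activates the ATPase of HSP90, was read at 45.3, 74.3, 83.8, 41.8 and 60.2 CPM in flox and 78.3, 71.2, 93.8, 72.4 and 92.1 CPM in HKO (log2 fold change 0.42 ± 0.19, edgeR adjusted p = 0.286).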

How the data were processed

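Libraries of total RNA from 10 liver samples used the VAHTS Universal V6 chemistry, per the labels. The authors deposited whole-number read counts per gene, not scaled. The submitters' processing notes name mm10 and DESeq2. For the aligner, counter, annotation and strand setting, nothing is given in the labels or headers. Gene coordinates are the table's own, of uncertain build: of 52073 identifiers found in GENCODE M21, 2.83% had the same start and end. Promoter sequences are RefSeq's, on GRCm38.p6.

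HKO and flox counts were compared with edgeR 4.0.16 in R 4.3.3 (TMM, filterByExpr by group, quasi-likelihood F-test, Benjamini-Hochberg over 14068 genes, threshold 0.05). SE was derived from the fold change and the F statistic (absolute log2 value divided by the root of F). Log2 CPM used a prior count of 2. Permutation tests of single genes were exact, two-sided and unadjusted. Copies were sought with BLAST 2.17.0: 8 of 43 genes had a transcript at least 95% identical over at least 50% of their length, mostly pseudogenes with few counts. The 43 genes and all lists were chosen with earlier results of these data known, so they give no independent support. Values per library are given for sensors and factors (Xbp1, Ern1, Atf6, Eif2ak3, Atf4, Ddit3, Hsf1), for Hspa5, Hsp90b1, Hspa1a, Hspa1b and Hspa8, for genes that passed, for the 5 smallest p per response and the 3 smallest per further list. Hsph1, Dnajb1, Arntl and Dbp were chosen after their values were seen.

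Alternatives were DESeq2 1.42.0, other scalings, filters and dispersions, a replicate block, leaving out each library and, added later, a Dbp to Bmal1 covariate. Libraries within a group differed by more than sampling noise. On simulated counts for 13769 genes of this comparison, the fit recovered 45% at a 2-fold and 83% at a 4-fold change, and 14 of 142 calls (9.86%) were false. Marker lists of other cells gave these calls: macrophage 10 of 10 tested lower, plasma cell 1 of 4 lower, endothelial 1 of 7 lower, and 0 called of 10 hepatocyte, 5 T, B and NK cell, 3 neutrophil, 7 stellate, 5 cholangiocyte, 1 pancreatic acinar, 9 immediate early and 12 clock genes tested. Of the acinar markers, Cela3b, Prss2, Cpa1, Cpb1 and Cel were at 0 counts.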

Additional observations from a re-analysis of the deposited data

Results flagged for a closer look

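In 4 of the 66 groups of 5 libraries examined for single genes, 1 library stood apart from the other 4 by Dixon's criterion on log2 CPM, which chance gives in about 1 group of 20. At Hspa1b, flox replicate 4 was read at 2.12 CPM against 31.8 to 88.5 CPM in the other flox libraries, a gap of 0.722 of the range of log2 CPM. At Hsp90aa1 the same library had 94.2 CPM against 253 to 372 CPM (0.719 of the range), and at Hsp90ab1 563 CPM against 892 to 1076 CPM (0.711). At Atf3, flox replicate 5 was read at 8.71 CPM against 0.688 to 1.42 CPM (0.730 of the range).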

How the results depend on the processing

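Ddit4 stayed lower and Hspb1, Xbp1, Atf4, Chac1 and Derl3 stayed higher in HKO under every alternative run. DESeq2 called 1112 genes (315 higher, 797 lower), and no filter on low counts gave 214 higher. Without 1 library at a time, 289 to 673 genes passed (69 to 160 higher, 220 to 522 lower), the fewest being 289 without HKO replicate 4, 335 without HKO replicate 1, 354 without HKO replicate 5 and 361 without flox replicate 5. Of the stress genes, 1 passed with robust dispersion and 1 to 2 without 1 library. ER genes higher numbered 1 in DESeq2 and 0 to 1 without 1 library; heat shock genes higher 0 with robust dispersion and 0 to 1 without 1 library. Further pathway genes called numbered 2 in DESeq2, 1 without the filter, 1 with the Dbp to Bmal1 covariate and 0 to 1 without 1 library. The integrated stress median changed sign under 5 alternatives, being -0.09 with library totals, -0.01 with the replicate block, -0.05 without flox replicate 1, -0.14 without HKO replicate 3 and -0.10 without HKO replicate 5. The cause of these changes was not tested. The labels do not say whether equal replicate numbers pair libraries. Correlations of same-numbered deviations ran from -0.121 to 0.240, and each flox library was closest to an HKO library of another number. These values were not set against chance and cannot exclude pairing. With the replicate number as a block 448 genes passed, 2 of them stress genes. Psat1 and Nupr1, with group means under 1 CPM, are limited by depth.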
